A study of Mus musculus with 4 samples.

Results

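The smooth muscle contractile genes described here were Acta2, Actg2, Myh11, Mylk, Cnn1, Tagln, Smtn, Lmod1, Synpo2 and Des. They were chosen by name, with earlier results of these data known. Their members were every probe set on the array whose annotated gene symbol was exactly 1 of these names. A probe set is a group of short probes that report on 1 transcript. All 10 genes had at least 1 probe set, and the 19 probe sets were 19 of 45101 on the array. For each gene, the brightest of its probe sets by mean intensity stood for it. All 10 genes entered the test over 12735 genes, which left out the dimmest genes, and 17 of the 19 probe sets entered the test over 31526 probe sets.

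Smooth muscle in the lung lies around bronchi and in the walls of arteries and veins, where it sets airway and vessel calibre. It shortens when calcium-bound calmodulin activates myosin light chain kinase, which phosphorylates the myosin light chain and lets myosin pull on actin. Thin-filament proteins such as calponin, transgelin and leiomodin bind and tune that actin, and intermediate filaments of desmin link the contractile bundles. Many of these genes are controlled by serum response factor, which binds the CArG box in their DNA together with the coactivator myocardin.

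RNA came from whole lung of mice of the B6/J strain, from 2 wild type lungs and 2 lungs of mice labelled IKKa floxed, with 1 array per lung. IKKα is a kinase that activates NF-κB transcription factors, and a floxed allele is flanked by the sites that Cre recombinase cuts. Both groups, the controls included, were given adenovirus carrying Cre through the trachea, and their lungs were collected 4 months afterwards. The labels used here do not give the promoter that drives Cre, the age or sex of the mice, or whether the 2 lungs of a group came from different mice. The p-values therefore reflect only how far these samples differ within a group, and that may be technical. Cre was delivered through the airways, the cells that lost the allele were not measured, and the targeted gene is not analysed here.

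The arrays had the same scaled mean, and their median intensities lay between 32.1 and 34.3. Intensities of the surfactant genes Sftpb and Sftpc ran from 2271 to 13619. The groups also differed in other ways. Xist, the RNA that coats an inactive X chromosome, was at 31.8 and 22.9 in wild type, against 4246 and 4629 in floxed lungs, and the Y-linked Eif2s3y was at 519 and 530 against 3.77 and 6.14, so genotype and sex cannot be told apart. The ratio of 3′ to 5′ Gapdh signal, which rises as RNA degrades, was 1.18 and 1.10 in wild type, against 1.44 and 1.68 in floxed lungs. For actin the same ratio lay closer between groups, at 2.65 and 2.46 against 2.67 and 2.77. The part of RNA quality in the results below was not tested.

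Of the 10 smooth muscle contractile genes, 8 had lower intensity on both floxed arrays than on either wild type array. Across all genes tested, 22.2% showed this pattern. Only Myh11 and Acta2 fell past the test's threshold, an adjusted p under 0.05 from limma with Benjamini-Hochberg adjustment over all genes, and none rose. Of all genes tested, 1.77% passed in either direction and 0.762% passed as lower. At an unadjusted limma p under 0.05, 7 of the 10 were lower and 0 higher, and 7.14% of all genes were lower. The median log2 fold change of the 10 genes was -0.56, and that of all genes tested was 4.73e-05. In whole lung, fewer smooth muscle cells and less of these RNAs per cell cannot be told apart.

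**Figure D1:**
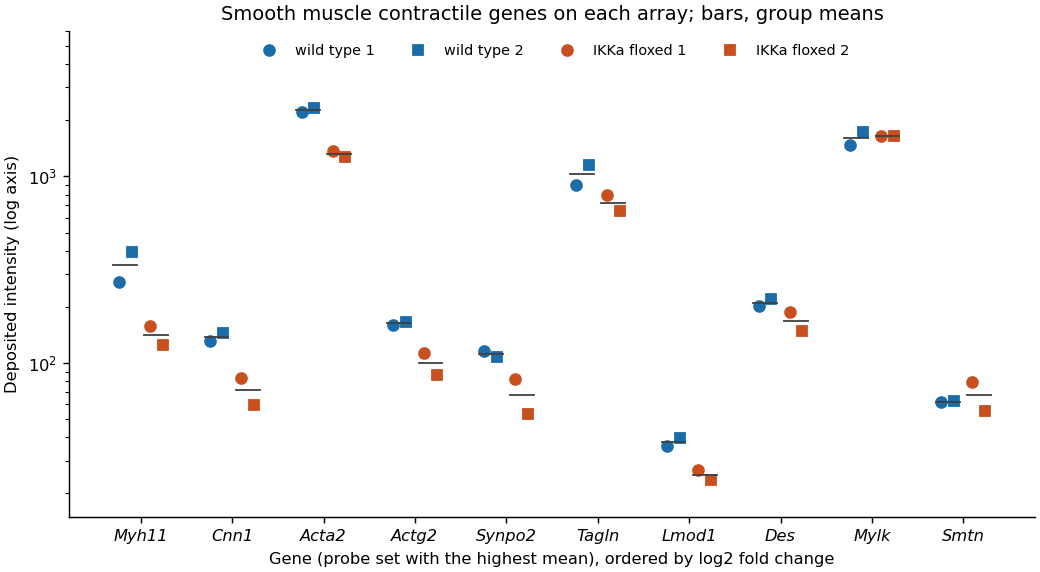
Deposited intensity (log axis) of each smooth muscle contractile gene on each array, as its brightest probe set; circles are replicate 1, squares replicate 2, blue wild type, orange IKKa floxed, and bars are group means (n = 2). The genes are ordered by log2 fold change, and in all but Mylk and Smtn both orange points lie below both blue ones.

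Acta2 encodes smooth muscle α-actin, the main thin-filament actin of vascular and airway smooth muscle. Its intensity was 2223 and 2336 on the wild type arrays and 1363 and 1278 on the floxed arrays. Both floxed arrays were low and the groups lay far apart relative to the spread within each. The floxed mean was 57.9% of the wild type mean (2280 ± 79.9 against 1321 ± 60.1, SD, n = 2 each), a log2 fold change of -0.78 ± 0.12 SE (limma adjusted p = 0.0316). The call was lost whichever array was left out, with adjusted p = 0.0884 without wild type replicate 1, 0.151 without wild type replicate 2, 0.0544 without floxed replicate 1 and 0.0658 without floxed replicate 2. It was also lost with no filter on low genes (0.113), with a pseudocount of 1 (0.0793) and with the mean of all 3 Acta2 probe sets, which gave a log2 fold change of -0.25 (0.401).

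The bright Acta2 probe set carries the array maker's suffix for probes that can match transcripts of more than 1 gene. The α-actins of smooth, cardiac and skeletal muscle are close relatives. Cardiac α-actin, Actc1, was itself at 980 and 1269 in wild type, against 371 and 269 in floxed lungs, and skeletal α-actin, Acta1, was at 28.6 and 44.9 against 16.6 and 38.8. The contribution of other actins to the Acta2 signal was not tested. The other two Acta2 probe sets were dim. One lay between 8.60 and 18.9 and the other between 1.43 and 3.86 over the 4 arrays, and in both the groups overlapped.

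The promoter of Acta2 is shown because this gene was called and because it holds matches to 2 elements known from smooth muscle genes. A CArG box was searched with its outer CC and GG fixed and at most 1 G or C among the 6 core bases, a form that reads the same way on both strands. The MCAT element, bound by TEAD factors, was searched as GGAATG or its reverse complement CATTCC. RefSeq promoter windows (build GRCm38.p6, from 250 bases before to 50 bases after each annotated start) were found for 7 of the 10 genes: Acta2, Cnn1, Des, Lmod1, Synpo2, Mylk and Smtn. The stretch of Acta2 below, on the minus strand at chr19:34255374-34255533, ends at the last base before the annotated start. For comparison it is followed by the bases around the MCAT matches of Lmod1, at chr1:135324653-135324718 on the plus strand, Smtn, at chr11:3539479-3539542 on the minus strand, and Mylk, at chr16:34784762-34784827 on the plus strand. All are written 5′ to 3′, with matches to either element in capitals.
Acta2: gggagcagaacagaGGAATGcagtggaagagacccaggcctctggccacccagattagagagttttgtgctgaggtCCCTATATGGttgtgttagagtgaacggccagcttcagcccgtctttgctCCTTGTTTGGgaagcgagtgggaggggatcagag
Lmod1: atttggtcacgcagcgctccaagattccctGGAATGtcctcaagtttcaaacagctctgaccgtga
Smtn: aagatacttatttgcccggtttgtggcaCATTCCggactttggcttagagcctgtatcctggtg
Mylk: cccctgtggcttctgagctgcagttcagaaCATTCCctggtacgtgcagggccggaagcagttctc

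The CArG matches of Acta2 begin 84 and 34 bases before its annotated start, and Acta2 was the 1 promoter of the 7 with such a match. Of 32851 promoters in the table, 9.98% held one, and 1.63% held a CArG box with only A or T in its core, which none of the 7 did. An MCAT match stood in 4 of the 7, against 14.7% of all promoters. Those 4 include Acta2 and Lmod1, whose floxed arrays were lower, and Mylk and Smtn, whose groups overlapped. These matches are letters in a window and not measured binding sites.

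Myh11, the smooth muscle myosin heavy chain and the most specific marker of the differentiated cell, had the largest log2 fold change of the 10 genes. It stood at 273 and 394 in wild type lungs and at 157 and 125 in floxed lungs. On the log2 scale the wild type arrays differed from each other more for Myh11 than for any other member, and still both were above the floxed arrays. The floxed mean was 42.3% of the wild type mean, a log2 fold change of -1.14 ± 0.20 SE (limma adjusted p = 0.0487). Without wild type replicate 1 the call held (adjusted p = 0.00995). It was lost without wild type replicate 2 (0.108), floxed replicate 1 (0.0590) or floxed replicate 2 (0.102). Other settings that ended it were no filter on low genes (0.160), a pseudocount of 1 (0.122), quantile normalization (0.0534) and the mean of its probe sets (-0.72, adjusted p = 0.0514). A dimmer Myh11 probe set gave 29.8 and 25.2 in wild type, against 11.3 and 29.2 in floxed lungs, so there the groups overlapped.

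Actg2 encodes γ-actin of smooth muscle, best known from visceral muscle. Its intensity was 161 and 167 in wild type, against 114 and 85.8 in floxed lungs. The groups were separate, with the wild type arrays close together. Its log2 fold change was -0.64 ± 0.15 SE, which did not pass (limma adjusted p = 0.113).

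The next 2 genes, Cnn1 and Tagln, encode thin-filament proteins that bind actin, and their intensities lay lower on both floxed arrays without a call. Cnn1, calponin, which inhibits the myosin ATPase, stood at 131 and 144 in wild type, against 83.3 and 59.4 in floxed lungs. It missed the threshold with all arrays at a log2 fold change of -0.83 ± 0.16 SE (limma adjusted p = 0.0673). It passed without floxed replicate 1, at -1.03 (adjusted p = 0.0312), and also with a pseudocount of 64 (0.0229), a filter at the 50th percentile (0.0330) or a trend and robust prior (0.0256). Tagln, transgelin or SM22α, an actin cross-linker, gave 903 and 1155 against 797 and 652. The floxed arrays were the lower ones by a narrow margin, and the log2 fold change of -0.49 ± 0.17 SE did not pass (adjusted p = 0.253).

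Lmod1, leiomodin, which nucleates actin filaments in smooth muscle, was a dim gene at 35.9 and 39.7 in wild type, against 26.7 and 23.5 in floxed lungs. Its groups did not overlap, with a log2 fold change of -0.39 ± 0.12 SE (limma adjusted p = 0.215). On the scale used, log2(intensity + 16), the change of such a dim gene is understated. Synpo2, synaptopodin 2, a Z-disc and dense-body protein that binds actin, gave 116 and 108 in wild type, against 81.8 and 53.3 in floxed lungs. Here the floxed arrays differed from each other on the log2 scale more than in any other member, and both were still below wild type (-0.63 ± 0.18 SE, adjusted p = 0.177). Without floxed replicate 1 Synpo2 passed, at -0.88 (adjusted p = 0.0476).

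Des, desmin, the muscle intermediate filament, is made in smooth, cardiac and skeletal muscle alike. It stood at 201 and 220 in wild type, against 189 and 149 in floxed lungs. Of the 8 lower genes it had the smallest change, -0.30 ± 0.15 SE, with a 95% interval of -0.65 to 0.05 (limma adjusted p = 0.425). Its second probe set was too dim to be tested, between 2.16 and 7.79 over the 4 arrays.

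Mylk and Smtn did not share this pattern. Mylk encodes myosin light chain kinase, in a short smooth muscle form and a long form that endothelial and other cells make. It was at 1468 and 1727 in wild type, against 1656 and 1640 in floxed lungs, so the floxed arrays lay between the wild type arrays. Its log2 fold change was 0.05 ± 0.13 SE, with a 95% interval of -0.27 to 0.36 (limma adjusted p = 0.910), and its sign turned with quantile normalization of the arrays, to -0.0097. A second bright Mylk probe set, at 1053 and 1115 in wild type, against 1103 and 1185 in floxed lungs, gave 0.08 ± 0.14 SE. A dim one, at 26.8 and 30.9 in wild type, against 30.4 and 22.6 in floxed lungs, gave -0.08 ± 0.16 SE, and in all 3 the groups overlapped. The probe sets cannot be assigned to a form of the kinase from the annotation used here.

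Smtn, smoothelin, an actin-binding protein of contractile smooth muscle, was at 61.6 and 62.5 in wild type, against 79.2 and 55.2 in floxed lungs. One floxed array was above and the other below both wild type arrays. The log2 fold change was 0.08 ± 0.16 SE, with a 95% interval of -0.31 to 0.47 (limma adjusted p = 0.881), and without floxed replicate 1 it was -0.13. The differences between these 2 genes and the 8 lower ones were not tested.

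Over single probe sets, 10 of the 17 tested were lower on both floxed arrays, against 24.1% of all probe sets tested. None passed limma's test adjusted over 31526 probe sets, where 0.546% passed in either direction and 0.251% as lower, and Acta2 came to an adjusted p of 0.108. At an unadjusted p under 0.05, 9 of the 17 were lower, against 6.41% of all. The median log2 fold change was -0.39 over the 17, and -0.03 over all probe sets tested. The 4 Synpo2 probe sets all pointed down, at -0.63, -0.56, -0.40 and -0.39, and the 3 brighter ones did not overlap between groups. For Acta2 and Myh11 the dimmer tested probe set had the smaller change, at 0.01 and -0.31.

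**Figure D2:**
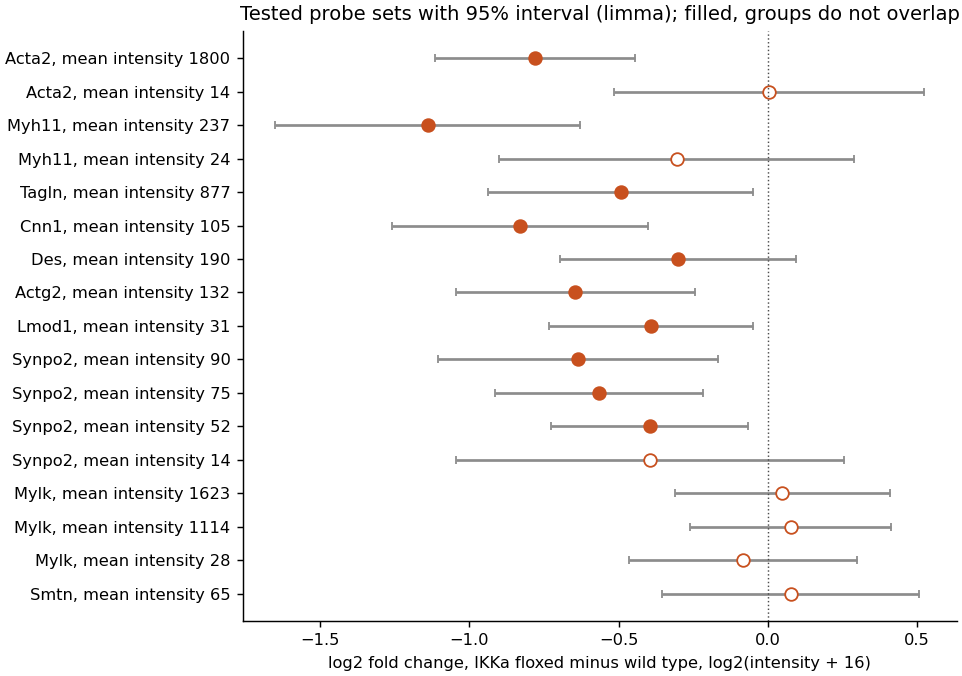
Log2 fold change (IKKa floxed minus wild type) of each of the 17 tested probe sets of the smooth muscle contractile genes, with its 95% interval from limma; labels give the gene and the mean intensity over the 4 arrays. Filled points are the 10 probe sets whose floxed arrays both lay below both wild type arrays, and the Mylk and Smtn points lie around 0.

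The members kept an order within each group. In 9 of the 10 genes wild type replicate 2 was above replicate 1, and in all 10 floxed replicate 1 was above replicate 2. Over all genes tested these shares were 48.7% and 51.0%. The gap between the floxed arrays was 0.50 for Synpo2, 0.40 for Cnn1 and 0.01 for Mylk on the log2 scale. The median change of the 10 genes against the wild type mean was -0.37 on floxed replicate 1 and -0.73 on floxed replicate 2. Of the floxed arrays, replicate 2 also had the higher 3′ to 5′ ratio, at 1.68 against 1.44 for Gapdh and 2.77 against 2.67 for actin.

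The genes that control smooth muscle differentiation showed no call in the main test. Of 14 tested, none passed limma's test, 3 were lower and 0 higher at an unadjusted p under 0.05, and the median log2 fold change was -0.04. With a pseudocount of 64, a filter at the 50th percentile or a trend and robust prior, 1 was called lower. Myocd, the coactivator myocardin, was dim at 22.3 and 26.4 in wild type, against 18.5 and 22.1 in floxed lungs (-0.15 ± 0.13 SE, limma adjusted p = 0.652). Srf, its DNA-binding partner, was at 162 and 175 against 196 and 208, so both floxed arrays were higher (0.24 ± 0.12 SE, adjusted p = 0.433). The ends of this list were Prrx1, a mesenchymal homeobox factor, at -0.72 ± 0.14 SE (adjusted p = 0.0723), and Tgfb1i1, a focal adhesion coactivator, at 0.32 ± 0.14 SE (adjusted p = 0.362).

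Among other filament genes, 1 of 14 fell and none rose (median -0.02). It was Lmod2, the leiomodin of heart and skeletal muscle, at 44.3 and 49.5 in wild type, against 16.2 and 11.4 in floxed lungs (-1.08 ± 0.14 SE, limma adjusted p = 0.0154), with adjusted p = 0.0510 without wild type replicate 2 and 0.0751 with no filter on low genes. The highest value of this list was that of Tagln2, the widely expressed transgelin, at 0.29 ± 0.12 SE (adjusted p = 0.348). Myl9, the regulatory myosin light chain of smooth muscle, is given here outside the naming rule, after its values were seen. It was at 764 and 984 in wild type, against 523 and 424 in floxed lungs, -0.86 ± 0.17 SE, and did not pass (adjusted p = 0.0716).

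Of 22 genes of dense plaques and anchoring, 1 fell and none rose (median -0.07). This was Ldb3, a Z-disc protein of striated muscle (-1.18 ± 0.21 SE, limma adjusted p = 0.0487), and it kept its call without wild type replicate 1 alone. Without wild type replicate 2 the limma adjusted p was 0.0932, and without floxed replicate 1 or 2 it was 0.0709 and 0.104. The call was also lost with no filter on low genes (0.160), a pseudocount of 1 (0.0997) or quantile normalization (0.0509). Tns1, a focal adhesion protein, was the highest at 0.37 ± 0.25 SE (adjusted p = 0.573).

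Of 13 genes of relaxation and cGMP signalling tested, 1 fell and none rose (median -0.10). The list had 16 genes with a probe set, and those not tested, Kcnmb1 among them, were below the filter. Pln, phospholamban, which restrains the calcium pump of the sarcoplasmic reticulum in heart and smooth muscle, went from 145 and 260 to 25.4 and 13.1 (-2.60 ± 0.28 SE, limma adjusted p = 0.00855, and 0.0575 with no filter on low genes). Prkg1, the cGMP-dependent kinase, stood at the other end at 0.32 ± 0.13 SE (adjusted p = 0.326). None of 8 receptors for contractile agonists passed limma's test (median -0.02), with 0 lower and 1 higher at an unadjusted p under 0.05. They lay between Cysltr1, a leukotriene receptor, at -0.25 and Bdkrb2, a bradykinin receptor, at 0.48. Of 14 such receptors with a probe set, those not tested, Chrm3 among them, were below the filter, so their change is not known. The 3 called genes of these lists, Lmod2, Ldb3 and Pln, are also made in cardiac muscle. The call of Pln is counted again among the cardiac markers below.

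**Figure D3:**
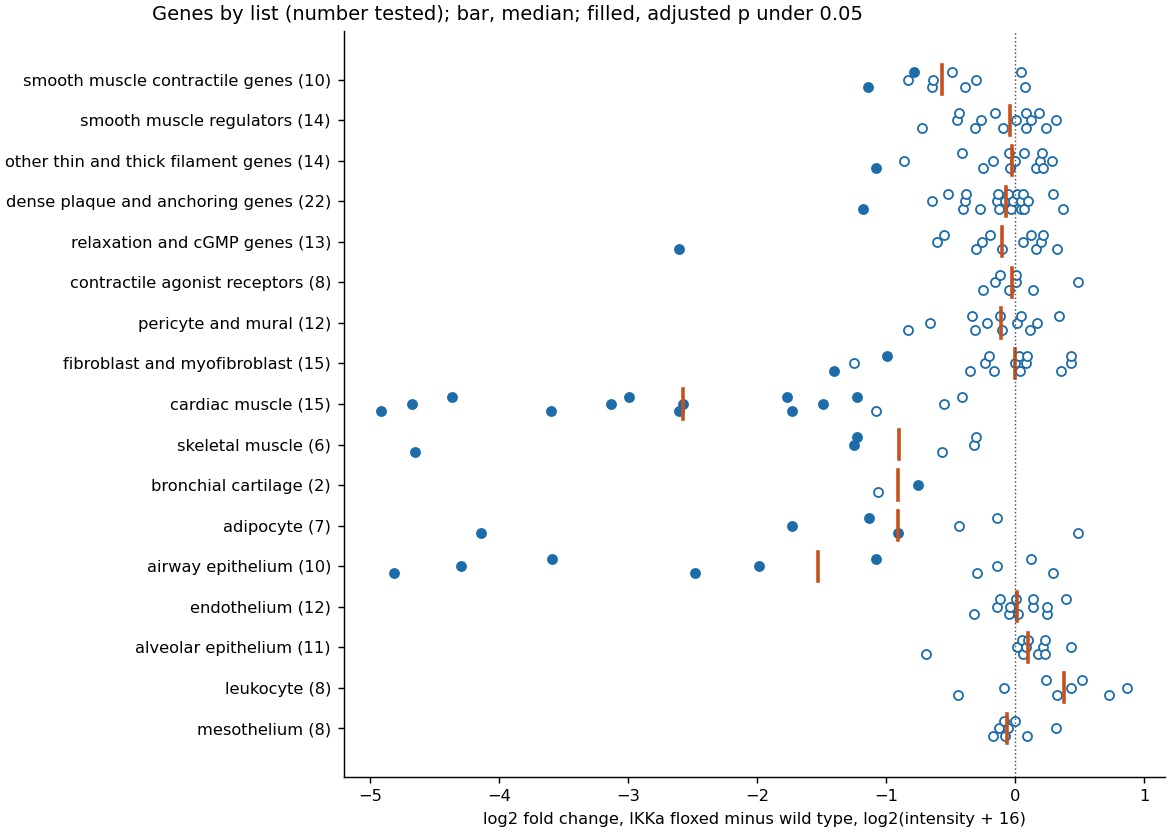
Log2 fold change (IKKa floxed minus wild type) of every tested gene, by list, with the number tested in brackets; orange bars are list medians and filled points passed limma's test at an adjusted p under 0.05. The smooth muscle contractile genes have a median of -0.56, between the lists of other smooth muscle genes, with medians from -0.10 to -0.02, and the cardiac muscle list at -2.57.

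Cardiac muscle markers moved with the smooth muscle genes and much further. In mice the walls of pulmonary veins carry heart muscle. Of 15 cardiac markers tested, 12 fell and none rose, and all 15 lay below 0 (median -2.57). Between 10 and 12 fell whichever array was left out, and 7 with no filter on low genes. The 3 with the largest changes were Myl7, an atrial myosin light chain, at 1028 and 1474 in wild type, against 25.6 and 25.0 in floxed lungs, Myh6, the α-myosin heavy chain, and Sln, sarcolipin, with log2 fold changes of -4.92, -4.68 and -4.36. The summed intensity of the list was 80.4% and 120% of its wild type mean on the wild type arrays and 13.8% and 11.0% on the floxed arrays. For the smooth muscle genes these sums were 93.5% and 107% against 76.2% and 69.1%. Bright genes weigh most in such sums, here Acta2 and also Mylk, whose groups overlapped. In 14 of 15 cardiac markers wild type replicate 2 was above replicate 1, as in 9 of the 10 smooth muscle genes, while floxed replicate 1 was above replicate 2 in 8 of 15. The part of heart muscle in the smooth muscle values was not tested.

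In the list of skeletal muscle markers 3 of 6 tested fell, and these were Mb, Myl1 and Ckm, of which myoglobin and muscle creatine kinase are heart genes as well. Ckm missed the threshold without either wild type array (limma adjusted p = 0.0539 and 0.0894), with no filter on low genes (0.161), a pseudocount of 1 (0.171), quantile normalization (0.0589) or the mean of its probe sets (-0.70, adjusted p = 0.311). The myosin heavy chains that define skeletal fibres, Myh1, Myh2 and Myh4, were below the filter, between 1.77 and 13.3 on all 4 arrays. Of the bronchial cartilage list 2 of 14 genes were bright enough to test. Cytl1 fell, at -0.76, but lost its call in each fit without 1 array (limma adjusted p of 0.0576 to 0.171), and Chad stood at -1.06 without passing. Collagen 2, aggrecan and chondromodulin, which define cartilage, lay between 1.02 and 17.5. Of 7 adipocyte markers 4 fell and none rose, with Car3 at -4.14, and of 10 airway epithelial markers 6 fell and none rose, with Bpifa1 at -4.81. With 1 array left out, 3 to 4 and 5 to 6 of them fell. With no filter on low genes 1 adipocyte and 2 airway markers fell, and with a pseudocount of 1 the airway count was 2. The call of Bpifa1 was lost in both settings (adjusted p = 0.156 and 0.158) and with a trend and robust prior (0.350). Lpl among the adipocyte markers (0.483) and Scgb1a1 among the airway markers (0.297) were higher on both floxed arrays without passing. Scgb1a1, the brightest airway marker, went from 14552 and 14417 to 19539 and 16203. In Cyp2f2 and Scgb3a2, also bright, the groups overlapped. Summed over 12 airway genes, the floxed arrays stood at 103.5% and 85.4% of the wild type mean, and these bright genes weigh most there. The part of skeletal muscle, cartilage, adipocytes and airway epithelium in the smooth muscle values was not tested.

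Markers of cells close to smooth muscle were less often past the threshold than cardiac markers, a difference that was not tested. None of 12 pericyte and mural markers passed limma's test (median -0.11), with 3 lower and 1 higher at an unadjusted p under 0.05. Pdgfrb, the receptor that pericytes and smooth muscle use, was at 856 and 844 in wild type, against 796 and 931 in floxed lungs. Rgs5 was at 222 and 193 against 151 and 171, and Abcc9 at 210 and 192 against 148 and 98.3. In 5 of the 12 markers both floxed arrays were below both wild type arrays, and in 1 both were above. Of all genes tested, 22.2% had both floxed arrays below. At the ends of this list were Ndufa4l2 at -0.83 and Lamc3 at 0.34. Among 15 fibroblast and myofibroblast markers 2 fell and none rose (median 0.00). They were the proteoglycans Dcn, at -1.40 ± 0.12 SE (limma adjusted p = 0.00394), and Aspn, at -0.99 ± 0.17 SE (adjusted p = 0.0476), and with 1 array left out Aspn kept its call without floxed replicate 2 alone (adjusted p of 0.0657 to 0.0961 without any other array). Aspn also lost it with no filter on low genes (0.156) or a pseudocount of 1 (0.120), and Dcn with the mean of its probe sets, at -0.70 (adjusted p = 0.106). No endothelial (12 tested, median 0.01), alveolar epithelial (11, median 0.10), leukocyte (8, median 0.38) or mesothelial marker (8, median -0.07) passed limma's test. At an unadjusted p under 0.05 there were 5 leukocyte markers higher and 1 lower, 1 alveolar marker each way, 1 endothelial marker higher and 0 mesothelial markers. At that p 907 of all 12735 genes were higher and 909 lower. The lower alveolar marker, Pdpn, went from 1642 and 1859 to 1075 and 1072 (-0.69 ± 0.13 SE, limma adjusted p = 0.0525). An alveolar marker fell with a pseudocount of 64, a trend and robust prior, mean of probe sets, quantile normalization or a 50th percentile filter. With a pseudocount of 64, the trend or the mean, 1 to 2 leukocyte markers rose. The trend also called 1 endothelial marker higher.

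**Figure D4:**
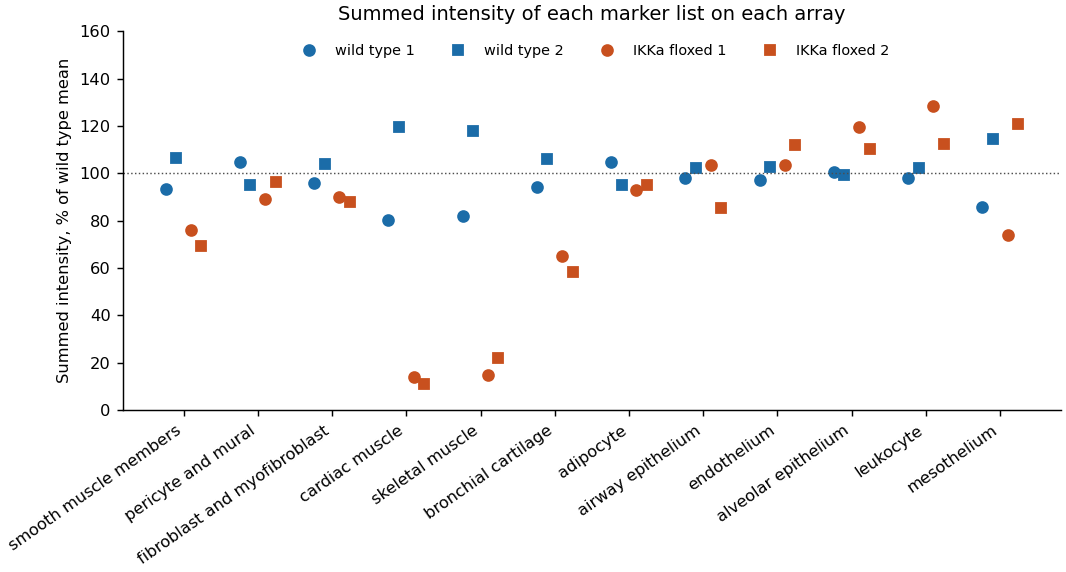
Summed intensity of each marker list on each array, as a percentage of its wild type mean; circles are replicate 1, squares replicate 2, blue wild type, orange IKKa floxed, and the dotted line is 100%. The smooth muscle genes stand at 76.2% and 69.1% on the floxed arrays, cardiac muscle at 13.8% and 11.0%, and pericyte markers at 89.3% and 96.1%. Bright genes weigh most in each sum, such as Acta2 and Mylk among the smooth muscle genes. Postn alone made 3288 and 2949 of the pericyte sums of 5559 and 5052 on the wild type arrays.

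Genes outside the 10 with the most similar profile were sought by the root mean square distance between centred log2 values over the 4 arrays and the mean profile of the 10 members. That profile was 0.18 and 0.33 on the wild type arrays, with -0.12 and -0.39 on the floxed arrays. The nearest 5 genes were Fbrsl1, Dusp18, Dctn3, Smoc1 and Adamdec1, at distances of 0.0048 to 0.020, and their log2 fold changes ran from -0.54 to -0.52. None of them passed limma's test, with adjusted p between 0.144 and 0.170. Among the members Tagln lay nearest at 0.072 and Myh11 farthest at 0.34. In all, 75 genes that are not members were nearer to the profile than Tagln, so a likeness over 4 arrays marks many genes.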

How the data were processed

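The deposited values are intensities on a linear scale, 1 for each probe set on each of the 4 arrays. They were made with Affymetrix Expression Console, per the submitters' processing notes (version and algorithm: not given in the sources used here). After 2% was trimmed from each end, the mean intensity was 150.001 on every array, so the authors had scaled the values before deposit. No detection calls were used. The platform annotation gave 1 gene symbol to 34945 of 45101 probe sets, 34741 of which matched RefSeq (GRCm38.p6) by Entrez number; 64 probe sets were controls.

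Intensities were taken as log2(intensity + 16). Array medians differed by 0.0646 at most, so no further normalization was applied. Genes below the 30th percentile of mean intensity (21.0) and probe sets below theirs (12.7) were left out. Groups came from sample titles. The test was limma 3.58.1 under R 4.3.3, with lmFit and eBayes, two-sided and without covariates, with 2 residual degrees of freedom. In the gene test eBayes added 4.67 prior degrees of freedom, estimated from the within-group variance of all genes tested. Intervals are 95%. An exact permutation test of 2 against 2 arrays cannot go below 0.333 and is not given. The procedure was tested on simulated data. Precision is limited by the number of arrays.

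The members and the 16 gene lists reported were chosen with earlier results of these data known; a further list is not reported here. Of each list, genes past the threshold and those with the most extreme log2 fold changes could be named, up to 6. Not all of these were named. Others, such as Myl9, Myocd, Srf, Pdgfrb, Rgs5 and Abcc9, were named outside this rule. Alternatives were the pseudocount, the filter, quantile normalization, an intensity trend with robust prior, the mean of a gene's probe sets, the replicate number as a block, and leaving out each array.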

Additional observations from a re-analysis of the deposited data

How the results depend on the processing

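The 8 lower genes kept their direction with quantile normalization and, where a gene had more than 1 probe set, with their mean. The other alternatives could not turn it, because both floxed arrays of these genes lay below both wild type arrays. The number past the threshold was less stable. It was 2 in the main test, 3 with a pseudocount of 64, a filter at the 50th percentile or a trend and robust prior, 1 with quantile normalization and 0 with a pseudocount of 1, no filter on low genes, the mean of all probe sets or a replicate block, and it ran from 0 to 2 with 1 array left out. The count of probe sets, 0 in the main test, became 3 with a pseudocount of 64, 1 with a filter at the 50th percentile and 3 when eBayes used an intensity trend and a robust prior, and ran from 0 to 1 with 1 array left out. The median log2 fold change of the 10 genes ran from -0.73 to -0.37 with 1 array left out. Over all genes, 225 calls became 110 with a pseudocount of 1, 362 with a pseudocount of 64, 69 with no filter and 388 with a trend and robust prior, and 145 to 251 with 1 array left out. The sign of Mylk turned with quantile normalization (-0.0097) and ran from -0.067 to 0.16 with 1 array left out, below 0 only without wild type replicate 1. Smtn ran from -0.13 to 0.29 with 1 array left out, below 0 only without floxed replicate 1. The cause was not tested.

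The labels number the samples 1 and 2 in each group. Same-numbered arrays did not deviate together (r = 0.0021 across 12735 genes, which are not independent replicates). With 2 arrays per group this cannot decide whether the numbers mark pairs. With the replicate block Acta2 had a limma adjusted p of 0.0620 and Myh11 of 0.0828, and 198 genes passed.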
